A study of Mus musculus with 16 samples.

Results

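Apart from *Slc1a4*, a neutral amino acid exchanger gene, the genes examined here take up or clear the amino acid transmitters glutamate, GABA and glycine. The genes are *Slc1a1*, *Slc1a2*, *Slc1a3*, *Slc1a4*, *Slc6a9*, *Slc6a11*, *Glul* and *Abat*. They were chosen by name, and each of the 8 symbols matched 1 of the 56980 rows of the count table. All 8 passed the filter on low counts in each of the 5 comparisons. Transcripts had been counted by RNA-seq of bulk astrocytes and endothelial cells (ECs) sorted from the cortex of 8 mouse pups at postnatal day 14 (P14). Every animal carried loxP-flanked *Hmgb1* on both alleles (*Hmgb1flx/flx*) and, per the study's methods, was given tamoxifen as a newborn. The 4 mutant animals (2, 13, 18 and 21) also carried the Aldh1L1-Cre/ERT2 BAC transgene, whose Cre is driven by an astroglial promoter, and the 4 animals called WT (5, 9, 19 and 22) were littermates without Cre. Both cell types came from every animal, 1 library of each, which gives 4 groups with n = 4. Myelin and CD45-bearing cells had been depleted first, CD31 beads then captured ECs, and beads against ACSA-2, an epitope of ATP1B2, captured astrocytes.

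Transmitters released at synapses are cleared in part, and glutamate mainly, by carriers in the membrane of astrocytes. These carriers use the sodium gradient across that membrane to move transmitters into the cell. Within the astrocyte, glutamate is converted to glutamine by glutamine synthetase and GABA is broken down by a transaminase, and glutamine returns to neurons as a precursor of both transmitters. *Slc1a2* encodes GLT-1, the main glutamate carrier of the mature forebrain. *Slc1a3* encodes GLAST, which is prominent in radial glia and young astrocytes. *Slc1a1* encodes EAAC1, a glutamate and cysteine carrier known mostly from neurons and epithelia. *Slc1a4* encodes ASCT1, an exchanger of serine, alanine and other neutral amino acids. *Slc6a11* encodes the GABA carrier GAT3, and *Slc6a9* the glycine carrier GLYT1. *Glul* encodes glutamine synthetase, and *Abat* encodes GABA transaminase, a mitochondrial enzyme.

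Per library 16076010 to 23132312 reads had been counted, and levels are counts per 1000000 reads of the library (CPM). *Hmgb1* was at 105.7 ± 20.05 CPM in WT astrocytes and 41.0 ± 7.54 CPM in mutant astrocytes (SD, n = 4), with no overlap, a log2 difference of -1.36 and an adjusted p of 0.0605 (edgeR quasi-likelihood). The summed level of 9 astrocyte markers was 12187 to 15577 CPM in the 8 astrocyte libraries and 443 to 671 CPM in the 8 EC libraries, and that of 8 endothelial markers was 12530 to 13581 CPM in ECs and 15.1 to 32.4 CPM in astrocytes. Oligodendrocyte markers reached 2705 CPM in the astrocyte library of WT animal 9, against 344 to 1096 CPM in the other 7 astrocyte libraries. Animals 2, 5, 9 and 13 had Y-linked transcripts and animals 18, 19, 21 and 22 had *Xist*, the RNA of the inactive X chromosome, with 2 animals of each genotype in each set, and WT animal 5 had a low level of *Xist* besides. The sets also part the lower from the higher animal numbers, and neuronal markers summed to 7.50 to 16.0 CPM in the astrocytes of the first set and 48.7 to 77.6 CPM in those of the second.

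On GRCm39, from GENCODE, the glutamate carrier genes lie apart from each other, *Slc1a1* (ENSMUSG00000024935.12) at chr19:28812449-28891360 on the plus strand, *Slc1a2* (ENSMUSG00000005089.16) at chr2:102488574-102621129 on the plus strand and *Slc1a3* (ENSMUSG00000005360.15) at chr15:8663604-8741595 on the minus strand. The exchanger gene *Slc1a4* (ENSMUSG00000020142.13) lies at chr11:20252180-20282774 on the minus strand. The carrier genes *Slc6a9* (ENSMUSG00000028542.18) and *Slc6a11* (ENSMUSG00000030307.9) lie at chr4:117691703-117732395 and chr6:114108200-114226913, both on the plus strand. The enzyme genes *Glul* (ENSMUSG00000026473.17) and *Abat* (ENSMUSG00000057880.13) lie at chr1:153775690-153785469 and chr16:8331233-8439996, both on the plus strand. Reads are counted over all exons of a gene, so that values do not tell isoforms apart.

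To set the levels of different genes side by side, CPM was divided by the exonic length of each gene in kilobases. This length counts all exons of all annotated transcripts. Levels therefore come out too low for a gene whose expressed transcripts are much shorter, and places between genes rest on these lengths. In WT astrocytes *Glul* stood highest, at 1745 ± 102 CPM per kb (SD, n = 4), which put it in place 11 of 56236 genes with a known length. *Slc1a2* followed at 1131 ± 213 CPM per kb, in place 14. *Slc1a3* was at 714 ± 30.3 CPM per kb, in place 26. The GABA carrier gene *Slc6a11* stood at 498 ± 70.6 CPM per kb, in place 35, and the exchanger gene *Slc1a4* at 251 ± 58.4 CPM per kb, in place 62. Below these came *Abat* at 73.6 ± 1.25 CPM per kb and the glycine carrier gene *Slc6a9* at 14.7 ± 1.14 CPM per kb. *Slc1a1* was lowest, at 0.459 ± 0.409 CPM per kb. The order of these 8 levels was the same in each of the 8 astrocyte libraries, and in WT as in mutant astrocytes no pair of neighbours in it overlapped. Together the 8 genes took 3.42% to 4.16% of the reads of WT astrocytes, 3.52% to 4.34% of those of mutant astrocytes, and 0.195% to 0.301% of those of ECs.

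**Figure D1:**
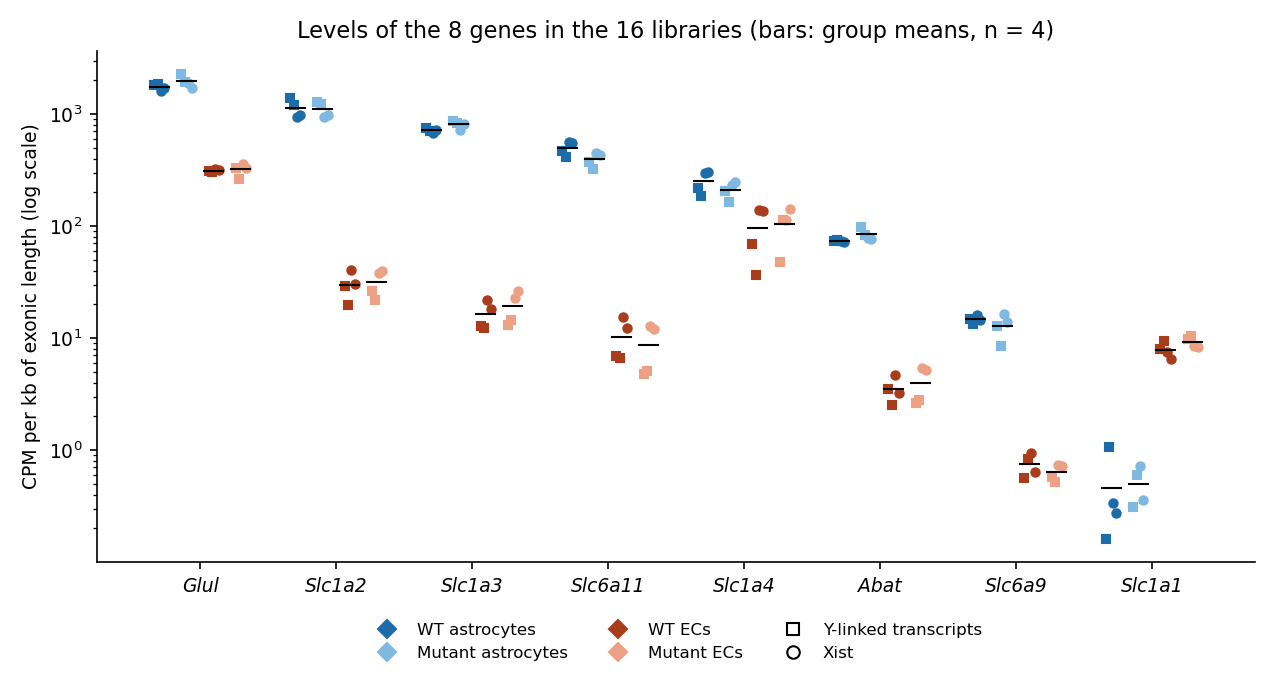
Level of each gene in CPM per kb of exonic length (log scale) in the 16 libraries, with 1 point per library, squares for animals with Y-linked transcripts, circles for animals with Xist, and bars for group means (n = 4). Glul, at 1745 CPM per kb in WT astrocytes, is highest in each group, 7 genes are lower in ECs than in astrocytes, and Slc1a1 is higher in ECs.

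In ECs the order differed. *Glul* was again highest, at 312 ± 6.67 CPM per kb in WT ECs, and *Slc1a4* was second, at 95.5 ± 50.9 CPM per kb. *Slc1a2* stood at 29.9 ± 8.57, *Slc1a3* at 16.3 ± 4.64, *Slc6a11* at 10.2 ± 4.24 and *Slc1a1* at 7.87 ± 1.25 CPM per kb. From *Slc1a4* down to *Slc1a1*, each of these neighbours overlapped with the next in the WT EC libraries. Within every single EC library, though, *Glul* was highest, followed by *Slc1a4*, *Slc1a2* and *Slc1a3* in that order. *Slc1a1* was above *Slc6a11* in the 4 EC libraries of animals with Y-linked transcripts and below it in the 4 with *Xist*. *Abat*, at 3.50 ± 0.897 CPM per kb, and *Slc6a9*, at 0.743 ± 0.173 CPM per kb, came last without overlap.

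The comparison of ECs with astrocytes asked where each gene is expressed. Its main fit held no term for the animal, although both libraries of an animal enter it. *Slc1a1* was the 1 member of the 8 that was higher in ECs, in both genotypes, and the other 7 were lower there. In WT animals all 8 passed an adjusted p of 0.05 (edgeR quasi-likelihood, Benjamini-Hochberg over 16336 genes), as did 76.4% of all genes tested, 38.3% higher and 38.2% lower in ECs. In mutant animals, too, all 8 passed, against 77.9% of 16508 genes, 38.8% higher and 39.1% lower in ECs. CPM did not overlap between the cell types for any of the 8, as for 73% of all genes in WT and 74.3% in mutant animals. A lower level in ECs by more than 3 on the log2 scale was found for 5 of the 8 in each genotype, against 11.4% of all genes in WT and 11.2% in mutant animals. The median log2 difference (EC minus astrocyte) of the 8 genes was -4.41 in WT and -4.45 in mutant animals, beside 0.02 and 0.01 over all genes. In these bulk samples fewer cells of a type and less RNA per cell cannot be told apart. Markers of other cells also differed between the fractions, with 8 pericyte and smooth muscle markers at 2301 to 4554 CPM in ECs and 379 to 1392 CPM in astrocytes, and 6 microglia and macrophage markers at 41.1 to 263 and 5.43 to 11.5 CPM. Ependyma and choroid plexus markers reached 5066 CPM in the ECs of WT animal 5. No marker of these lists was at 0 in any library, and their part in the differences was not tested; all 8 genes were called without each animal in turn.

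*Slc1a1* had 68.7, 81.1, 64.7 and 55.2 CPM in the ECs of WT animals 5, 9, 19 and 22, and 84.0, 89.7, 72.9 and 70.9 CPM in those of mutant animals 2, 13, 18 and 21. In astrocytes the same WT animals had 1.38, 9.10, 2.89 and 2.35 CPM, and the mutant animals had 2.65, 5.12, 6.15 and 3.07 CPM. No EC library overlapped with an astrocyte library. The log2 difference was 4.06 (SE 0.49, adjusted p = 4.42e-05) in WT and 4.15 (SE 0.24, adjusted p = 1.07e-07) in mutant animals, by edgeR. The highest astrocyte level was in WT animal 9, the library with the most oligodendrocyte markers, and without that animal the WT difference was 4.75. The part of those markers in the *Slc1a1* level was not tested. *Slc1a1* shares 185 exonic bases with *Spata6l* on the opposite strand, which at 6.87 CPM in WT and 6.24 CPM in mutant astrocytes stood above the mean of *Slc1a1* there, and at 3.64 and 3.99 CPM in ECs stood below it.

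Of the genes lower in ECs, the principal carriers differed most. *Slc6a11* was at 2515 ± 357 CPM in WT astrocytes and 51.7 ± 21.4 CPM in WT ECs, a log2 difference of -5.67 (SE 0.32, adjusted p = 2.08e-07). *Slc1a3* was at 10425 ± 442 and 238 ± 67.7 CPM, a log2 difference of -5.51 (SE 0.23, adjusted p = 3.24e-08). *Slc1a2* was at 15829 ± 2984 and 419 ± 120.0 CPM, a log2 difference of -5.31 (SE 0.27, adjusted p = 1.09e-07). These 3 carriers lay within the lowest 1.08% of all WT log2 differences. The enzyme gene *Abat* and the glycine carrier gene *Slc6a9* followed, with log2 differences of -4.46 (SE 0.18) and -4.37 (SE 0.16). *Glul*, whose enzyme is present in many tissues, differed by -2.54 (SE 0.12, adjusted p = 5.06e-08), from 6889 ± 404 CPM in WT astrocytes to 1233 ± 26.3 CPM in WT ECs. *Slc1a4* differed least, by -1.46 (SE 0.38, adjusted p = 0.00631). In mutant animals the log2 differences were -5.59 for *Slc6a11*, -5.49 for *Slc1a3*, -5.23 for *Slc1a2*, -4.48 for *Abat*, -4.42 for *Slc6a9*, -2.69 for *Glul* and -1.11 for *Slc1a4*.

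Because both libraries of an animal are known, the EC level was also expressed as a percent of the astrocyte level of that animal. In WT animals it was 2.00% ± 0.586 (SD, n = 4) for *Slc6a11*, 2.30% ± 0.738 for *Slc1a3* and 2.79% ± 1.21 for *Slc1a2*. For 9 markers of astrocytes the WT means ran from 2.27% (*Fgfr3*) to 14.8% (*Sox9*), with a median of 2.94%, so that *Slc6a11* lay just below this range and *Slc1a3* and *Slc1a2* at its lower end. *Abat*, at 4.75% ± 1.20, and *Slc6a9*, at 5.05% ± 1.13, lay within it. *Glul*, at 17.96% ± 1.46, and *Slc1a4*, at 35.9% ± 12.7, lay above the highest marker mean. *Slc1a1* was at 2609% ± 1703. In mutant animals the marker means ran from 2.52% to 14.03%, *Glul* was at 16.6% ± 3.05 and *Slc1a4* at 49.8% ± 19.3. Single animals overlapped more than the means did, since *Sox9* reached 24.2% and *Glul* fell to 13.5%.

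**Figure D2:**
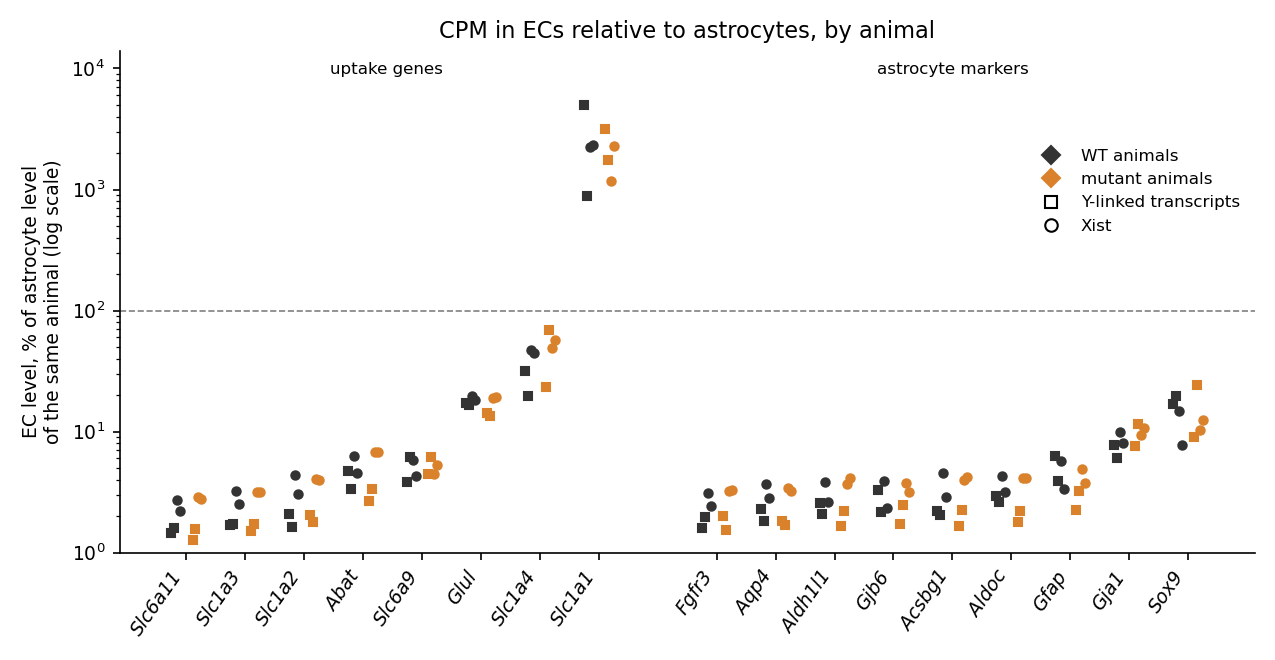
CPM in ECs as a percent of CPM in astrocytes of the same animal (log scale) for the 8 uptake genes on the left and 9 astrocyte markers on the right, with 1 point per animal and a dashed line at equal levels. Slc6a11, Slc1a3 and Slc1a2, with WT means of 2.00% to 2.79%, sit among the markers with the lowest percents, and Glul, Slc1a4 and Slc1a1 have means above those of all markers.

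EC levels of several carriers also parted by set. *Slc1a3* was at 180 to 211 CPM in the 4 animals with Y-linked transcripts and 265 to 382 CPM in the 4 with *Xist*. *Slc6a11* was at 24.1 to 34.7 CPM in the first set and 60.8 to 77.4 CPM in the second, and *Slc1a2* was at 277 to 405 and 422 to 570 CPM. *Slc1a4* was at 151 to 468 and 471 to 586 CPM. For these 4 of the 8 genes the sets did not overlap in ECs, against 11.6% of all genes. The summed astrocyte markers in the same EC libraries were at 443 to 559 CPM in the first set and 491 to 671 CPM in the second, with all 9 markers above 0 in every library, and their part in these levels was not tested. In astrocytes *Slc1a2* ran the other way, with 16973 to 19511 CPM in animals with Y-linked transcripts and 13098 to 13830 CPM in those with *Xist*. *Slc1a4* was lower in the first set there, at 677 to 904 CPM against 962 to 1252 CPM. These 2 of the 8 genes did not overlap between the sets in astrocytes, where 28.9% of all genes did not. The sex of the animals cannot be told apart from whatever else parts the animal numbers.

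The bases before the start of transcription are shown for *Slc1a1*, the gene higher in ECs, and for *Slc1a2* and *Slc6a11*, carriers that were lower there by more than 5 on the log2 scale. Each run is the 250 bases before the start of the gene's canonical transcript in GENCODE, from GRCm39, 5′ to 3′ on the gene's strand. Capitals mark the dinucleotide CG, the site of DNA methylation in mammals.
Slc1a1, chr19:28812224-28812473, plus strand: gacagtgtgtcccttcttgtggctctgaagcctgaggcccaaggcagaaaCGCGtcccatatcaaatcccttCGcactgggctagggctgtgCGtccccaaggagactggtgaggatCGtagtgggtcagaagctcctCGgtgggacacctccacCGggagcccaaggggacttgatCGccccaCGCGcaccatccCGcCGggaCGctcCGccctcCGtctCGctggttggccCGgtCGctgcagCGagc
Slc1a2, chr2:102488324-102488573, plus strand: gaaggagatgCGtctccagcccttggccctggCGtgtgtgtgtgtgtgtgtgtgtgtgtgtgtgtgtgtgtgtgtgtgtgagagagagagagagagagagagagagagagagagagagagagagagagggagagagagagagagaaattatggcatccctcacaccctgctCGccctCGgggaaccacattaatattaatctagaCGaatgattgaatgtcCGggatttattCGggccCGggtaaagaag
Slc6a11, chr6:114107950-114108199, plus strand: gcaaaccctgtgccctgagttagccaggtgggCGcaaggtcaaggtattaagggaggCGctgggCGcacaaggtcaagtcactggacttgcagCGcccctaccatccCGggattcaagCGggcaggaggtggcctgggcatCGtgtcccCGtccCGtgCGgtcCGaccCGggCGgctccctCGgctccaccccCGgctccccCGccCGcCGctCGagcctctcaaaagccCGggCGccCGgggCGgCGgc

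*Slc1a1* held 19 CG and *Slc6a11* held 24, beside a median of 8 and a highest decile of 23 in the same window of 21770 protein-coding genes. *Slc1a2* held 8, and much of its window is a run of GT and GA repeats. The GC content was 65.2% for *Slc1a1*, 71.2% for *Slc6a11* and 51.6% for *Slc1a2*, against a median of 53.2%. Among the other members the count of CG was 2 in *Slc1a3*, 10 in *Slc6a9*, 14 in *Abat*, 15 in *Slc1a4* and 18 in *Glul*. The windows of *Slc1a3* (chr15:8740277-8740526), *Slc6a9* (chr4:117691998-117692247) and *Glul* (chr1:153776073-153776322) lie inside the gene positions given above. The *Slc1a1* window ends inside its gene. Letters of promoter motifs were searched on both strands. The GC box GGGCGG, which holds 1 CG itself, was present in 5 of the 8 windows (*Slc1a1*, *Slc1a3*, *Slc1a4*, *Slc6a11* and *Abat*) and in 36.3% of all windows. The letters CCAAT, on either strand, were found in the windows of *Slc1a3* and *Slc1a4*, and in 36.5% of all. TATAAA, on either strand, was found for *Slc1a3*, and in 11.9% of all. A match is a description of letters and not a site of binding.

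Mutant and WT animals were compared within each cell type, to ask which transcripts differ after deletion of *Hmgb1* from astrocytes. Only mutant animals carried the Cre/ERT2 transgene, so its presence and the deletion cannot be told apart for any gene. None of the 8 uptake genes passed the test in astrocytes, where 1 of 15850 genes (0.00631%), *Esr1*, had an adjusted p under 0.05 by edgeR. DESeq2 called 97 genes, none of them a member. At an unadjusted p under 0.05 there was 1 member, *Slc6a11*, against 7.44% of all genes. The log2 differences (mutant minus WT) ran from -0.33 for *Slc6a11* to 0.20 for *Abat*, with a median of 0.05 beside 0.01 over all genes, and 4 were positive and 4 negative.

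*Slc6a11*, the GABA carrier gene, was at 2375, 2075, 2826 and 2784 CPM in the astrocytes of WT animals 5, 9, 19 and 22. In mutant animals 2, 13, 18 and 21 it was at 1882, 1624, 2262 and 2190 CPM. The groups overlapped over all animals, but within each set both mutant animals were below both WT animals. Such a separation, in the same direction in both sets, was found for 3 of the 8 genes in astrocytes (*Slc6a11*, *Slc1a3* and *Abat*), against 16% of all genes. The *Slc6a11* log2 difference was -0.33 (SE 0.13, p = 0.0286, adjusted p = 0.628 by edgeR), with an exact permutation p of 0.114. It was -0.32 in the animals with Y-linked transcripts and -0.35 in those with *Xist*, and adding *Xist* as a covariate to the fit gave an adjusted p of 0.0704. Over 18 settings the log2 difference stayed between -0.42 and -0.25, and no setting called the gene.

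*Abat*, the gene of the enzyme that breaks down GABA, was the 1 member whose groups did not overlap in astrocytes, as was the case for 4.97% of all genes. WT animals 5, 9, 19 and 22 had 714, 717, 715 and 691 CPM, and mutant animals 2, 13, 18 and 21 had 944, 803, 758 and 734 CPM. The log2 difference was 0.20 (SE 0.10, adjusted p = 0.695 by edgeR), with an exact permutation p of 0.0286, the smallest that 4 against 4 can give. It was 0.31 in animals with Y-linked transcripts and 0.067 in those with *Xist*, and 0.098 without mutant animal 2.

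The glutamate carrier genes were not called. *Slc1a3* had 10939, 10349, 9873 and 10537 CPM in WT animals 5, 9, 19 and 22, and 12701, 12150, 10558 and 11932 CPM in mutant animals 2, 13, 18 and 21. The lowest mutant library lay between the WT libraries, although mutant animals were above WT animals within each set, and the log2 difference was 0.19 (SE 0.09, adjusted p = 0.683 by edgeR; exact permutation p = 0.0571). *Slc1a2* had 19511, 16973, 13098 and 13734 CPM in the WT animals and 17937, 17078, 13158 and 13830 CPM in the mutant animals, in the same order. Its libraries parted by set and not by genotype, and the log2 difference was -0.02 (SE 0.17, adjusted p = 0.992). *Slc1a1* differed by 0.12 (SE 0.54, adjusted p = 0.981), by -0.40 in the animals with Y-linked transcripts and 0.79 in those with *Xist*, and by 0.94 without WT animal 9.

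*Glul*, the glutamine synthetase gene, had 7115, 7292, 6377 and 6773 CPM in WT animals 5, 9, 19 and 22, and 8984, 7670, 7446 and 6717 CPM in mutant animals 2, 13, 18 and 21. The groups overlapped, and the log2 difference was 0.17 (SE 0.11, adjusted p = 0.771), or 0.068 without mutant animal 2. *Glul* shares 147 exonic bases with *Teddm2* on the opposite strand, which was at 0.909 ± 0.157 CPM in WT astrocytes and 2.16 ± 0.334 CPM in mutant astrocytes. The strand setting of the counting is not given in the sources used here. The neutral amino acid exchanger gene *Slc1a4* differed by -0.24 (SE 0.18, adjusted p = 0.802) and the glycine carrier gene *Slc6a9* by -0.19 (SE 0.16, adjusted p = 0.854), each with overlapping groups. When 1 animal was left out, the difference ran from -0.36 to -0.13 for *Slc1a4* and from -0.32 to -0.033 for *Slc6a9*, whose value nearest to zero was that without mutant animal 13. Of the exonic bases of *Slc6a9*, 1429 lie opposite *Ccdc24* and 551 opposite *B4galt2*, which was at 35.6 to 48.4 CPM in WT astrocytes beside 81.6 to 98.4 CPM for *Slc6a9*. In WT ECs *B4galt2*, at 18.6 to 23.3 CPM, was above *Slc6a9*, at 3.44 to 5.70 CPM.

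**Figure D3:**
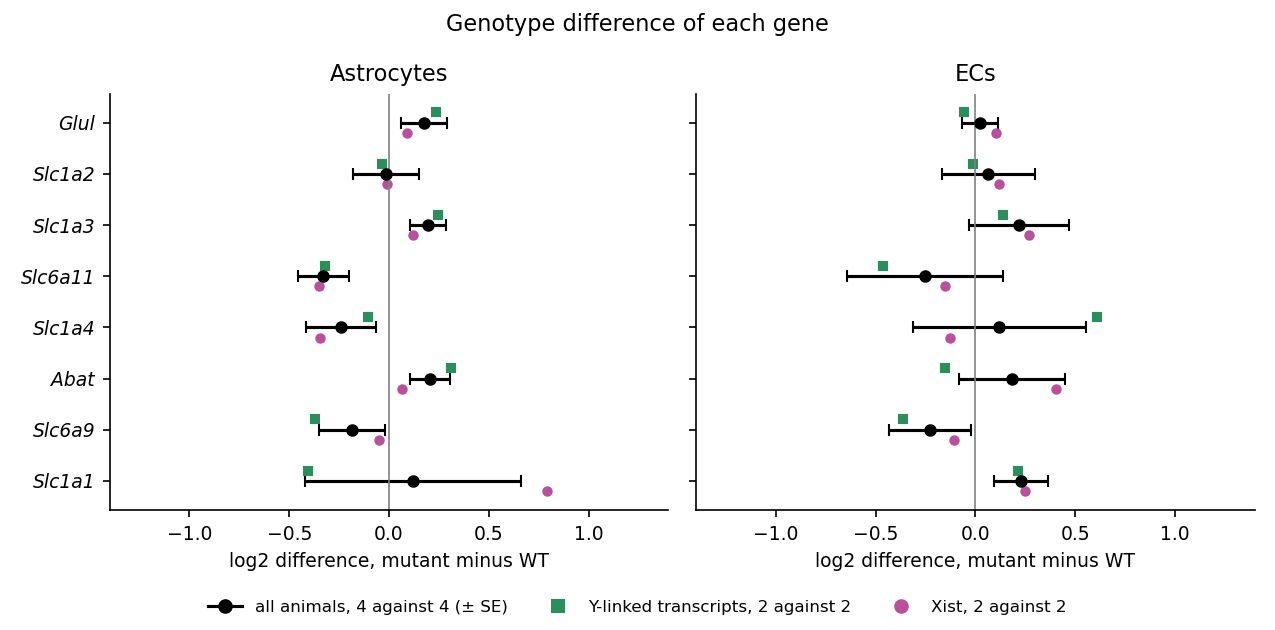
Log2 difference (mutant minus WT) of each gene in astrocytes (left) and ECs (right), with black points and SE bars for the fit over all animals (4 against 4), green squares for the 4 animals with Y-linked transcripts and purple circles for the 4 with Xist (2 against 2 each). In astrocytes Slc6a11 lies at -0.33, with both sets close to it, and no gene was called in either cell type.

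A ratio within a library does not depend on its size, so the balance of the main glutamate carriers was compared as the ratio of *Slc1a2* to *Slc1a3* reads per exonic base. It was 1.86, 1.71, 1.38 and 1.36 in the astrocytes of WT animals 5, 9, 19 and 22, and 1.47, 1.47, 1.30 and 1.21 in those of mutant animals 2, 13, 18 and 21. *Slc1a2* was above *Slc1a3* in all 8 libraries by this measure, which rests on exonic lengths of 13994 and 14595 bases over all annotated transcripts. Lengths of the transcripts in use were not measured. The groups overlapped, while within each set both mutant animals were below both WT animals. The log2 ratio was 0.65 ± 0.22 in WT and 0.44 ± 0.14 in mutant astrocytes (SD, n = 4), a difference of -0.20 with an exact two-sided permutation p of 0.229. Within the sets the difference was -0.28 and -0.13, where 2 against 2 cannot give an exact p below 0.333.

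**Figure D4:**
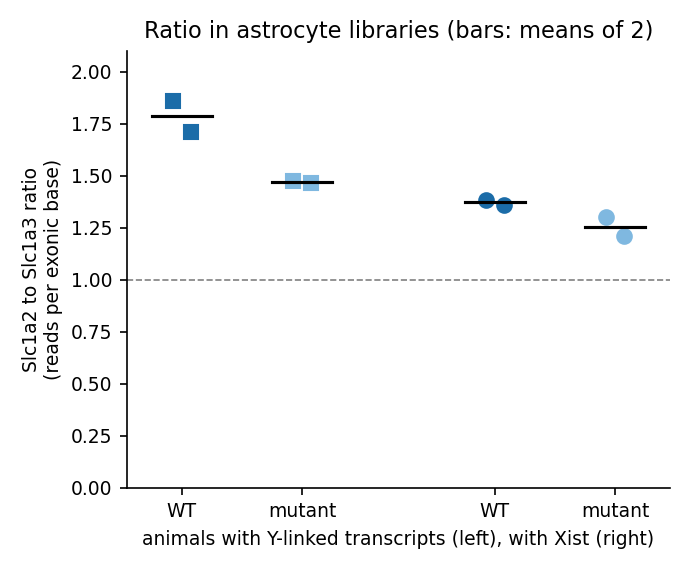
Ratio of Slc1a2 to Slc1a3 reads per exonic base in the 8 astrocyte libraries, by set and genotype, with bars for the mean of 2 animals and a dashed line at equal levels. The ratio ranges from 1.21 to 1.86, and mutant animals lie below WT animals within each set.

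In ECs none of the 8 genes differed between genotypes past the test, and neither did any of the 15750 genes tested (0%; edgeR). At an unadjusted p under 0.05 there were 826 genes (5.24%), none of them a member, and DESeq2 called 3 genes, none of them a member. The log2 differences ran from -0.25 for *Slc6a11* (SE 0.39, adjusted p = 0.972) to 0.23 for *Slc1a1* (SE 0.14, adjusted p = 0.943). *Slc1a1* was at 67.4 ± 10.7 CPM in WT ECs and 79.4 ± 8.97 CPM in mutant ECs. Mutant animals were above WT animals within each set, as for 2 of the 8 genes (*Slc1a1* and *Slc1a3*) and, in either direction, 7.78% of all genes, but the groups overlapped and the exact permutation p was 0.143. No member had EC groups that did not overlap, against 3.45% of all genes. *Slc1a4* ranged from 151 to 581 CPM in WT ECs and from 200 to 586 CPM in mutant ECs.

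Whether a genotype difference itself differed between astrocytes and ECs was tested over all 16 libraries, with no term for the animal in the main fit. The interaction was called for 2 of 17493 genes (0.0114%), *Esr1* and *Hmgb1*, and for none of the 8 (adjusted p = 0.999983 for each, edgeR). DESeq2 called 8 genes, none of them a member, and 491 genes had an unadjusted p under 0.05 (2.81%), none of them a member. The log2 difference of the differences ran from -0.37 (SE 0.50) for *Slc1a4* to 0.14 (SE 0.17) for *Glul*.

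Around these genes stand other carriers and enzymes of the same transmitters. Of 9 other SLC6 carriers listed, 7 were tested in the WT cell type comparison, 2 were higher and 3 lower in ECs. *Slc6a6*, the taurine carrier gene, was higher in ECs, at 26.4 ± 5.13 CPM in WT astrocytes and 1420 ± 124 CPM in WT ECs, a log2 difference of 5.69 (SE 0.18). Of 3 other SLC1 carriers 2 were tested, and *Slc1a5*, which encodes the glutamine exchanger ASCT2, was higher in ECs by 1.56 (SE 0.09) and *Slc1a6* lower by 2.91 (SE 0.66). Among 9 genes of glutamine and amino acid exchange, 5 were higher and 4 lower in ECs. *Slc38a5*, a glutamine and neutral amino acid carrier gene, was at 0.385 ± 0.153 CPM in WT astrocytes and 752 ± 181 CPM in WT ECs, a log2 difference of 10.85 (SE 0.29). *Slc7a8*, which encodes the exchanger LAT2, differed by 6.62 (SE 0.31).

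Enzymes and receptors of the same transmitters are read here beside the 38.2% of all genes that were lower and the 38.3% that were higher in ECs. Of 15 tested genes of glutamate and GABA metabolism, 8 were lower and 5 higher in ECs, with *Gpt2*, an alanine transaminase gene, at -4.30 (SE 0.12) and *Aldh5a1*, whose enzyme acts after GABA transaminase, at -3.83 (SE 0.17). Of 10 genes of glycine and serine metabolism 9 were lower, with *Gldc* of the glycine cleavage system at -5.29 (SE 0.18) and *Phgdh*, the first enzyme of serine synthesis, at -4.15 (SE 0.17). Of 13 glutamate and GABA receptor genes 12 were lower, with the NMDA receptor subunit gene *Grin2c* at -5.75 (SE 0.34) and the GABA-B receptor subunit gene *Gabbr2* at -5.60 (SE 0.32). The 9 ion gradient and pH genes had 6 lower and 3 higher, with the bicarbonate carrier gene *Slc4a4* at -5.52 (SE 0.25) and the potassium channel gene *Kcnj16* at -5.21 (SE 0.29). This list includes *Atp1b2*, whose protein was used to collect the astrocytes. Of 4 vesicular carriers of neurons only *Slc17a7* passed the filter on low counts, and its difference of -0.83 was not called.

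**Figure D5:**
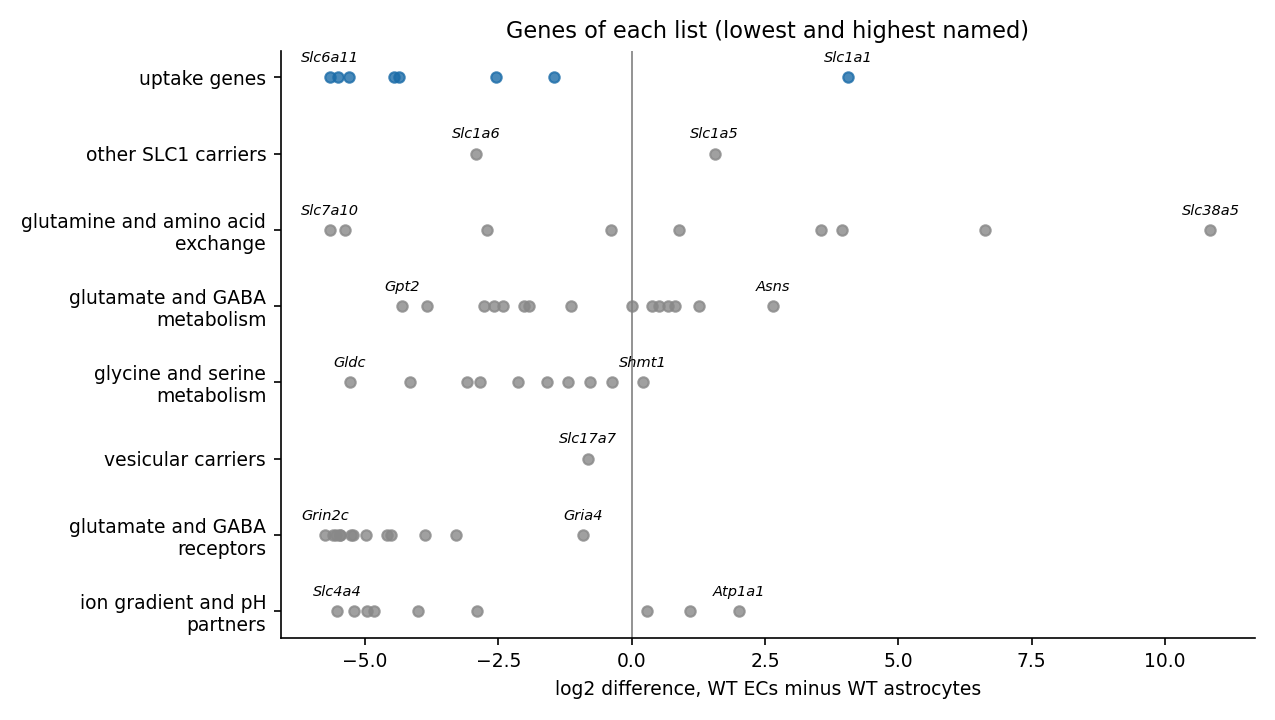
Log2 difference between WT ECs and WT astrocytes for each gene tested of the 8 uptake genes (blue) and of 7 of the lists of related genes, all but that of SLC6 carriers (grey), with the lowest and highest gene of each list named. Slc38a5, at 10.85, lies farthest to the right, Slc1a1 is the 1 uptake gene to the right of zero, and the receptor list lies wholly to the left.

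In the main edgeR fits no gene of these lists was called between genotypes in astrocytes or in ECs. Calls of these genes in the other settings were not examined. In astrocytes the smallest p among receptors belonged to *Gabra4*, a GABA-A receptor subunit gene, with a log2 difference of 0.37 (SE 0.08, adjusted p = 0.281), followed by *Grm5*, a metabotropic glutamate receptor gene, at -0.92 (SE 0.27, adjusted p = 0.505). Of the 13 receptor genes 11 had negative differences, with a median of -0.10, where 48.2% of all genes had negative differences. In ECs 6 of the 13 were negative, with a median of 0.08. *Slc7a10*, which encodes the glycine and serine exchanger ASC-1, differed by -0.41 (SE 0.10, adjusted p = 0.351), from 477 ± 28.5 CPM in WT to 357 ± 45.7 CPM in mutant astrocytes. Of the 9 ion gradient and pH genes 8 had negative differences, with *Atp1b1*, a sodium pump subunit gene, at -0.24 (SE 0.07, adjusted p = 0.523) and *Kcnj16* at -0.22 (SE 0.10, adjusted p = 0.673). Negative differences also prevailed in amino acid exchange (7 of 8), glutamate and GABA metabolism (10 of 15) and other SLC1 carriers (2 of 2). Positive ones prevailed in glycine and serine metabolism (8 of 10), other SLC6 carriers (5 of 7) and vesicular carriers (2 of 2). The other genes named for their p in this comparison had adjusted p of 0.702 to 0.989: *Slc6a6* (0.62), *Slc6a20a* (0.39), *Slc1a6* (-0.38), *Slc1a5* (-0.08), *Slc7a5* (-0.20), *Got1* (-0.23), *Got2* (-0.17), *Shmt1* (-0.28), *Psat1* (0.12), *Slc17a7* (0.43) and *Slc17a6* (0.20), each with its log2 difference in parentheses.

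The genes most like each member across the 16 libraries were found as those with the smallest root mean square difference of centred log2(CPM + 1) among 11357 genes of at least 5 CPM in WT astrocytes. For *Slc1a2* they were *Nwd1* (0.10) and *Bmpr1b* (0.11), and for *Slc1a3* *Myorg* (0.14) and *Hapln1* (0.15). For *Slc6a11* they were *Gabbr2* (0.20) and *Ptprz1* (0.21). The libraries span both cell types, so genes with like differences between ECs and astrocytes lie close by this measure. In WT animals that log2 difference was -5.67 for *Slc6a11* and -5.60 for *Gabbr2*. *Glul* was nearest to *Slc35a5* (0.12) and *Agpat3* (0.13), *Abat* to *Gpm6b* (0.15) and *Sfxn5* (0.16), and *Slc6a9* to *Actr3b* (0.18) and *Asphd2* (0.19). *Slc1a4* had no close partner, its nearest being *Mmp14* (0.38) and *Igsf10* (0.40). Among the members, *Slc1a2* and *Slc1a3* were the closest pair (0.23), and *Slc1a4* and *Slc6a11* the farthest (2.18). *Slc1a1* was below 5 CPM in WT astrocytes and was not included.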

How the data were processed

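Cortical astrocytes and ECs of 8 animals had been sequenced as stranded libraries. The sample labels name a TruSeq stranded mRNA kit, while the study's methods name an NEBNext Ultra II Directional kit. The authors trimmed reads with the FASTX-toolkit, aligned them to GRCm39 and counted them per gene with STAR 2.7.9a, and deposited raw counts per gene without normalization; DESeq2 is also named in the submitters' processing notes. The annotation release and strand setting are not given in the sources used here. Identifiers were matched to GENCODE for GRCm39 without their version (56236 of 56980), which gave symbols, positions and exonic length.

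Each comparison was fitted over all genes passing filterByExpr with the edgeR 4.0.16 quasi-likelihood F-test in R 4.3.3 (TMM factors, adjusted p under 0.05 by Benjamini-Hochberg), and the procedure was tested on simulated data. The SE of a log2 difference was taken as its size over the square root of F. For single values an exact permutation test (two-sided, on log2(CPM + 1)) was added, whose smallest p for 4 against 4 is 0.0286. CPM used total counts. Libraries held 16076010 to 23132312 reads. *Slc1a1* had 26 to 157 reads per astrocyte library and *Slc6a9* had 69 to 106 per EC library, where counting noise adds to the spread between animals. No 2 libraries agreed within sampling noise, and no column belonged to no sample. Sets were defined by at least 1 CPM of Y-linked genes.

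Astrocyte and EC libraries with the same number come from the same animal; over genes of at least 5 CPM their deviations from the group means correlated at -0.05 to 0.37, and for 5 of 8 animals the own library was the best match. Alternatives were DESeq2 1.42.0, RLE factors, no filter, at least 1 CPM in 4 libraries, limma-voom (limma 3.58.1), *Xist* as a covariate, each set alone, all 16 libraries in 1 fit, the animal as a blocking factor, and fits without each animal in turn.

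The members and lists were chosen with earlier results of these data known. The genes named are all members, *Hmgb1*, and from each of 8 lists any gene called between genotypes, the 2 with the smallest p in the astrocyte genotype comparison and the 2 with the largest WT cell type difference, with the 2 nearest genes in pattern for each member of at least 5 CPM. 1 gene named by this rule is not reported here. Promoter windows came from GENCODE canonical transcripts.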

Additional observations from a re-analysis of the deposited data

Results flagged for a closer look

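Of 34 groups of 4 libraries checked for a value far from the others (the 8 genes in 4 groups, and the ratio of *Slc1a2* to *Slc1a3* in both astrocyte groups), 1 stood out, and chance gives about 1 in 20. *Abat* in WT astrocytes was lowest in animal 22, at 691 CPM, while the other animals had 714, 715 and 717 CPM. The gap of that animal was 0.857 of the range of the group, above Dixon's 95% critical value for 4 samples. All 4 values lay below the lowest mutant library, at 734 CPM.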

How the results depend on the processing

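No alternative called any of the 8 genes in the astrocyte or EC genotype comparison or in the interaction, and every alternative called all 8 in both cell type comparisons. The count of all genes called in the astrocyte comparison, 1 by edgeR, was 97 with DESeq2, 3 without a filter, 2 with limma-voom, 192 with *Xist* as a covariate, 0 and 7 in the animals with Y-linked transcripts and with *Xist* alone, and 6 with all 16 libraries in 1 fit. In ECs it was 3 with DESeq2 and 1 with the *Xist* covariate, and for the interaction 8 with DESeq2 and 1 to 3 when leaving out an animal. With the replicate block (the animal), 12582 genes were called in the WT cell type comparison, 12796 in the mutant one and 3 in the interaction, and the block changed no call of a member. The cause of these shifts was not tested.

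Of the differences whose sign turned, none was called. In astrocytes *Slc1a2* went to 0.0062 without a filter and *Slc1a1* to -0.40 in the animals with Y-linked transcripts. In ECs the same animals gave -0.010 for *Slc1a2*, -0.058 for *Glul* and -0.15 for *Abat*, and the animals with *Xist* gave -0.13 for *Slc1a4*. In the interaction limma-voom gave 0.32 for *Slc1a1* and -0.0010 for *Abat*, the replicate block gave 0.052 for *Slc1a1* and -0.0052 for *Slc6a9*, and no filter gave 0.0046 for *Slc1a3*. Leaving out 1 animal gave ranges that crossed zero, in astrocytes for *Slc1a1* (-0.16 to 0.94) and *Slc1a2* (-0.12 to 0.10). In ECs they did so for *Slc1a2* (-0.081 to 0.24), *Slc1a4* (-0.15 to 0.36), *Slc6a11* (-0.51 to 0.0016), *Glul* (-0.037 to 0.10) and *Abat* (-0.00084 to 0.35). In the interaction they did so for *Slc1a1* (-0.40 to 0.60), *Slc1a2* (-0.35 to 0.093), *Slc1a3* (-0.23 to 0.15), *Slc6a9* (-0.087 to 0.15), *Slc6a11* (-0.28 to 0.11) and *Abat* (-0.24 to 0.23).

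The difference in the ratio of *Slc1a2* to *Slc1a3* stayed between -0.27 and -0.12 when leaving out 1 animal. Reads carry no molecular identifiers. *Slc1a1* rested on 26 to 157 reads per astrocyte library.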
